A study of Mus musculus with 10 samples.

Results

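The 38 genes described here encode the machinery that licenses, unwinds and copies DNA, the enzymes that supply it with nucleotides, and factors that act in chromatin behind the fork. They were followed by name on 10 Affymetrix arrays of cultured fibroblasts from mouse embryos. Each gene was read on 1 probe set, the brightest on average over the 10 arrays among those annotated to it alone, and was kept if its mean log2 value was 4 or more in at least 1 group. Of the 38 genes, 35 were kept, and over the whole array 20681 probe sets passed the same filter. Orc1, the largest subunit of the origin recognition complex, reached a highest group mean of 3.88, and Tyms, which makes thymidylate, reached 3.22, so both stayed under the filter. No probe set carried the symbol of Chaf1a, a histone chaperone subunit, alone. The kept genes nearest to the filter were Gins1, Cdc45 and Chaf1b, with highest group means of 6.13, 6.69 and 7.08.

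The study put 4-hydroxytamoxifen (OHT), a ligand of the estrogen receptor often used to activate receptor-fused Cre, on fibroblasts with a conditional Dicer knockout (CDKO). Dicer processes microRNA precursors. CDKO fibroblasts were left untreated or were given 1 µM or 5 µM OHT, and wild-type (WT) fibroblasts were left untreated or were given 5 µM. Treatment lasted 4 days, every group had 2 arrays, and all cells grew in the same serum-containing medium. The labels name no Cre, no promoter driving one and no deleted exon, and nothing in them tells if replicate arrays stand for separate cultures or embryos, so p-values measure only the spread between arrays, which may be technical. In treated CDKO cells the drug and any recombination it brought about cannot be told apart.

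Origins are licensed in G1, when ORC, CDC6 and CDT1 load the MCM helicase onto DNA and geminin later blocks CDT1. In S phase CDC45 and the GINS complex turn MCM into the active helicase, primase and polymerases copy both strands, the sliding clamp PCNA is loaded by replication factor C, and FEN1 and DNA ligase 1 join the lagging-strand fragments. Most of these genes are transcribed late in G1 under E2F factors, so in a culture their transcripts are abundant when many cells are cycling and scarce when few are.

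Stretches of promoter are shown for members whose upstream sequence held a word of the E2F type, the motif that this gene family is known for. The words searched were TTTCCCGC, TTTCGCGC, TTTGCCGC and TTTGGCGC on both strands. Cdc6, Mcm7 and Pola1 are shown because they were lower in treated WT cells and held a word before the start, and Mcm5 and Mcm6 because they held more than 1 word there. Each line gives the 170 bases before the RefSeq transcription start on the gene's own strand (RefSeq, GRCm38.p6). Capitals mark the words, which read as their reverse complement where they lie on the other strand.
Cdc6, chr11:98907981-98908150, plus strand: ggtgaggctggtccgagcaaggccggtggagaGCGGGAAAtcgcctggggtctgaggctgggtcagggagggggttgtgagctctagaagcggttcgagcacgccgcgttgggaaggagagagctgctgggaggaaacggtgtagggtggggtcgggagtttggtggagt
Mcm7, chr5:138171884-138172053, minus strand: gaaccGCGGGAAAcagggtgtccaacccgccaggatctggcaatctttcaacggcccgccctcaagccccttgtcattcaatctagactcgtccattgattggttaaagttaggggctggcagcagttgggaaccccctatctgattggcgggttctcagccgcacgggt
Pola1, chrX:93632156-93632325, minus strand: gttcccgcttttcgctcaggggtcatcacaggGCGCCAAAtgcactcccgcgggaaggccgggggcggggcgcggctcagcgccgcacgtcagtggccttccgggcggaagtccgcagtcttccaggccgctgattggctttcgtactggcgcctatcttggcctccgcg
Mcm5, chr8:75109339-75109508, plus strand: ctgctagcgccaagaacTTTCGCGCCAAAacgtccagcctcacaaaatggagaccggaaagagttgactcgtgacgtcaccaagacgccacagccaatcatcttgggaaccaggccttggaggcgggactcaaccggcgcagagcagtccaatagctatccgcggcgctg
Mcm6, chr1:128359706-128359875, minus strand: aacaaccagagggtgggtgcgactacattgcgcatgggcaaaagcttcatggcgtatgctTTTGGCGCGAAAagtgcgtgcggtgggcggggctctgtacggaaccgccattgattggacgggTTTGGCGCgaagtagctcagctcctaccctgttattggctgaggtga
In Cdc6 the word began 138 bases before the start and in Pola1 it also began 138 bases before it, both on the strand opposite to the gene. In Mcm7 it began 165 bases before the start. In Mcm5 the words on opposite strands, at 153 and 149 bases, overlapped into 1 run, and Mcm6 had such a pair at 110 and 106 bases and a further word at 47 bases.

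RefSeq windows of 300 bases, from 250 before to 50 after a start, were found for 27 of the 35 kept genes. A word of the E2F type was present in 11 of the 27 (40.7%), against 2.61% of all 27025 genes with a window. Counted by window it was present in 34.4% of the members' 32 windows and in 2.27% of all 32851 windows of the same length. Among 47 other replication genes with a window 31.9% held a word, and among 21 mitosis genes with a window 4.76% did. Of the 7 members that were lower in treated WT cells, 6 had a window and 4 of these held a word: Cdc6, Mcm3, Mcm7 and Pola1. In Mcm3 the words lay after the start, at 19 and 38 bases. Among the 21 kept members with a window that did not pass, 7 held a word (33.3%). One of these was Rfc3, whose difference in WT cells was positive. The CCAAT box was present in 59.3% of the members' genes and 41.1% of all genes. In the other replication genes and the mitosis genes it was present in 59.6% and 76.2%, so it was not particular to the members. The cell cycle homology words TTTGAA and TTCGAA, by contrast, were present in 18.5% of the members' genes and 21.7% of all genes, against 76.2% of 21 mitosis genes with a window. Words could overlap, as in Mcm5, and a match describes the letters in the window only.

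Across the 10 arrays the probe sets of the members did not scatter alike. The median SD of the members between the 2 arrays of a group was 0.09 (log2) in WT cells without OHT and 0.07 with it. In CDKO cells it was 0.34 untreated, 0.67 at 1 µM and 0.39 at 5 µM. Over all tested probe sets the same medians were 0.10, 0.07, 0.31, 0.34 and 0.29, in the same order. Dicer1 itself, on its brightest probe set, read 8.97 and 9.10 in untreated WT, 7.64 and 7.19 in treated WT, 7.09 and 5.99 in untreated CDKO, 5.40 and 8.30 at 1 µM and 5.83 and 5.78 at 5 µM (log2). The labels do not place this probe set relative to the deleted part, so it does not check the knockout. The number of arrays, 2 in each group, limited the precision of every value.

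**Figure D1:**
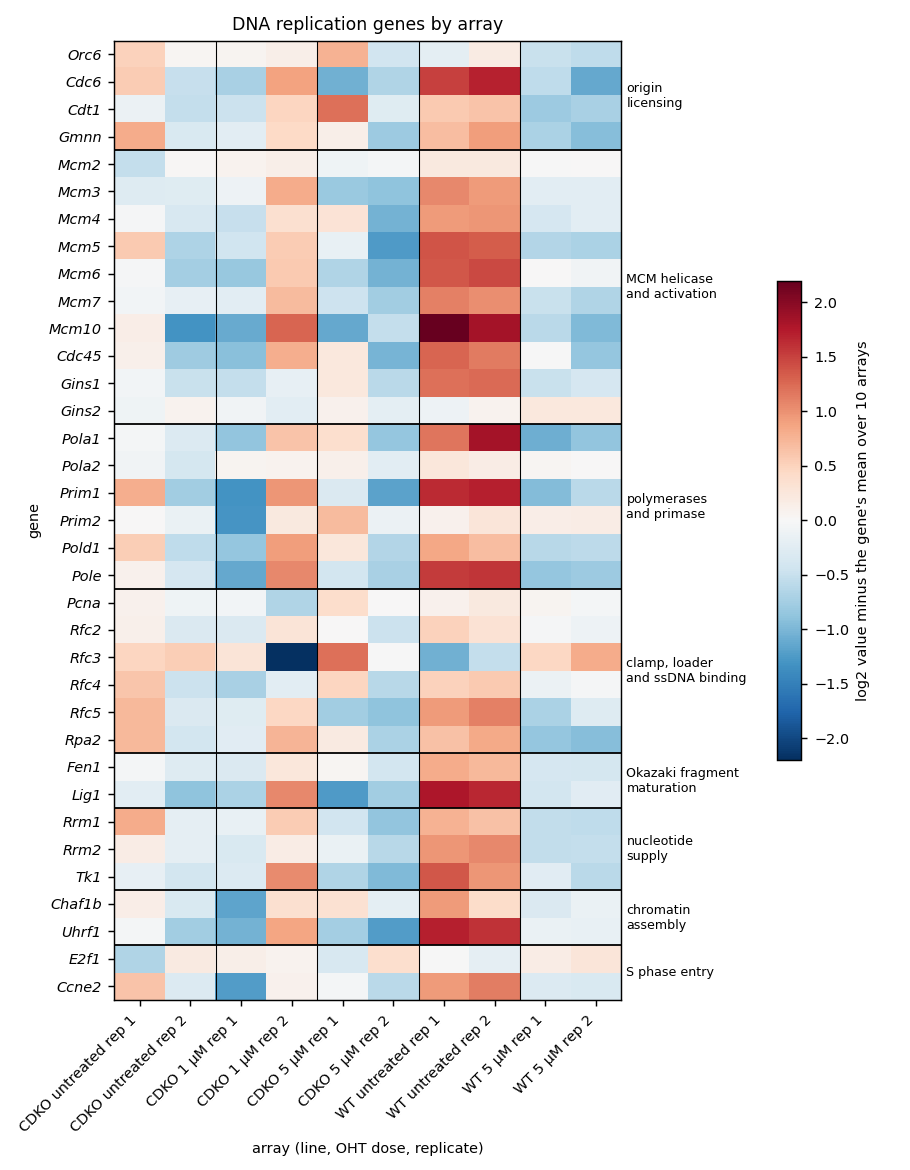
Log2 value of each of the 35 kept members (rows, by role) in each of the 10 arrays (columns), after subtracting the gene's mean over the 10 arrays; red is above and blue below that mean. Both untreated WT arrays are red for most rows, CDKO 1 µM replicate 2 comes next, and Rfc3 runs the other way, with its lowest value, 5.28, in that array.

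The heat map of the members by array shows the group that stood apart. Untreated WT cells had the highest mean of the 5 groups for 29 of the 35 members. Orc6 was highest in untreated CDKO cells, Prim2 and Pcna in CDKO cells at 5 µM, and Gins2, Rfc3 and E2f1 in WT cells at 5 µM. The lowest mean was in CDKO cells at 5 µM for 13 members, in WT cells at 5 µM for 12, in CDKO cells at 1 µM for 7 and in untreated CDKO cells for 3. The highest and lowest groups were not counted over all tested probe sets, so these counts do not show what is particular to the members. Relative to each gene's mean over all arrays, the median of the members stood at 0.93 and 0.94 in the untreated WT arrays. It stood at -0.37 and -0.36 in the treated WT arrays. In CDKO arrays it stood at 0.10 and -0.34 untreated, -0.43 and 0.46 at 1 µM and 0.01 and -0.64 at 5 µM. The untreated WT arrays thus lay above all others. The treated WT arrays lay inside the range of the CDKO pairs at 1 µM and at 5 µM. They lay just below untreated CDKO array 2 (-0.34) and further below array 1 (0.10).

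The first comparison asks what 5 µM OHT did in the cells that the titles name WT. Of the 35 members 7 fell and 0 rose by limma with Benjamini-Hochberg adjusted p under 0.05, where 5.73% of all tested probe sets fell and 3.51% rose. They were Cdc6, Mcm3, Mcm7, Gins1, Pola1, Fen1 and Rrm2, which cover licensing, the helicase, the polymerase that extends primers, fragment maturation and nucleotide supply. The change was negative for 32 members, with a median of -1.36 on the log2 scale against -0.06 over all tested probe sets. Of all tested probe sets 53.2% were negative. Both treated arrays lay below both untreated arrays for 31 members and above them for 3, where 43.9% of all tested probe sets lay wholly below and 39.1% wholly above. At an unadjusted p under 0.05, 23 members were lower and 0 higher, against 16.9% and 13.7% of all tested probe sets. In bulk RNA, fewer cycling cells and less of a transcript per cell cannot be told apart.

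The 4 kept origin licensing genes all had a negative difference, treated minus untreated WT, and 1 passed the test. Cdc6 (probe set 1417019_a_at), the ATPase that helps to load MCM and is destroyed when cells leave the cycle, read 7.09 and 7.29 in untreated WT cells and 5.03 and 4.47 at 5 µM (log2 value). The groups did not overlap, and the change was -2.44 ± 0.56 (log2, SE, n = 2 arrays a group, adjusted p = 0.039). In CDKO cells Cdc6 read 6.15 and 5.09 untreated, 4.89 and 6.48 at 1 µM and 4.54 and 4.93 at 5 µM, so that the 1 µM arrays spanned the untreated pair and the 5 µM arrays lay below it. Cdt1, which brings MCM to the origin, had a difference of -1.35 ± 0.50 (adjusted p = 0.12), and geminin (Gmnn), its inhibitor, one of -1.61 ± 0.46 (adjusted p = 0.068). Orc6, the smallest origin recognition subunit, had a difference of -0.50 ± 0.39 (adjusted p = 0.42).

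Among the 10 genes of the MCM helicase and its activation, 9 had a negative difference and 3 passed the test. Mcm7 (1438320_s_at), a subunit of the hexamer, read 12.01 and 11.93 in untreated WT and 10.42 and 10.23 in treated WT cells, a change of -1.64 ± 0.31 (adjusted p = 0.025). Mcm3 (1420028_s_at), another subunit, read 9.72 and 9.61 against 8.43 and 8.44, a change of -1.23 ± 0.30 (adjusted p = 0.045). Gins1 (1452598_at), part of the complex that activates the helicase, read 6.12 and 6.14 against 4.41 and 4.54, a change of -1.65 ± 0.31 (adjusted p = 0.024). In all 3 genes the untreated WT arrays were above every other array of the study. The treated WT means of Gins1, Cdc6 and Mcm10 were under 5 and so close to the filter at 4, and their differences give no transcript ratio.

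Mcm10, which helps to start the fork, read 7.63 and 7.09 in untreated WT and, close to the filter, 4.68 and 4.30 in treated WT cells. Its difference of -2.87 ± 0.78 did not pass (adjusted p = 0.061), and its CDKO arrays ran from 3.95 to 6.55. Mcm5, Mcm6, Cdc45 and Mcm4 had differences of -2.03, -1.44, -1.64 and -1.26 and did not pass. Mcm2, a subunit of the same hexamer, read 8.69 and 8.68 in untreated and 8.46 and 8.48 in treated WT cells, a difference of -0.21 ± 0.22. On 1434079_s_at, its other tested probe set, the difference was -1.07 ± 0.30 (adjusted p = 0.067). Gins2, a partner of Gins1, read 7.78 and 7.97 in untreated and 8.13 and 8.12 in treated WT cells, a difference of 0.25 ± 0.20 (adjusted p = 0.44). Its treated arrays lay above its untreated ones, and on another probe set the sign was the opposite.

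**Figure D2:**
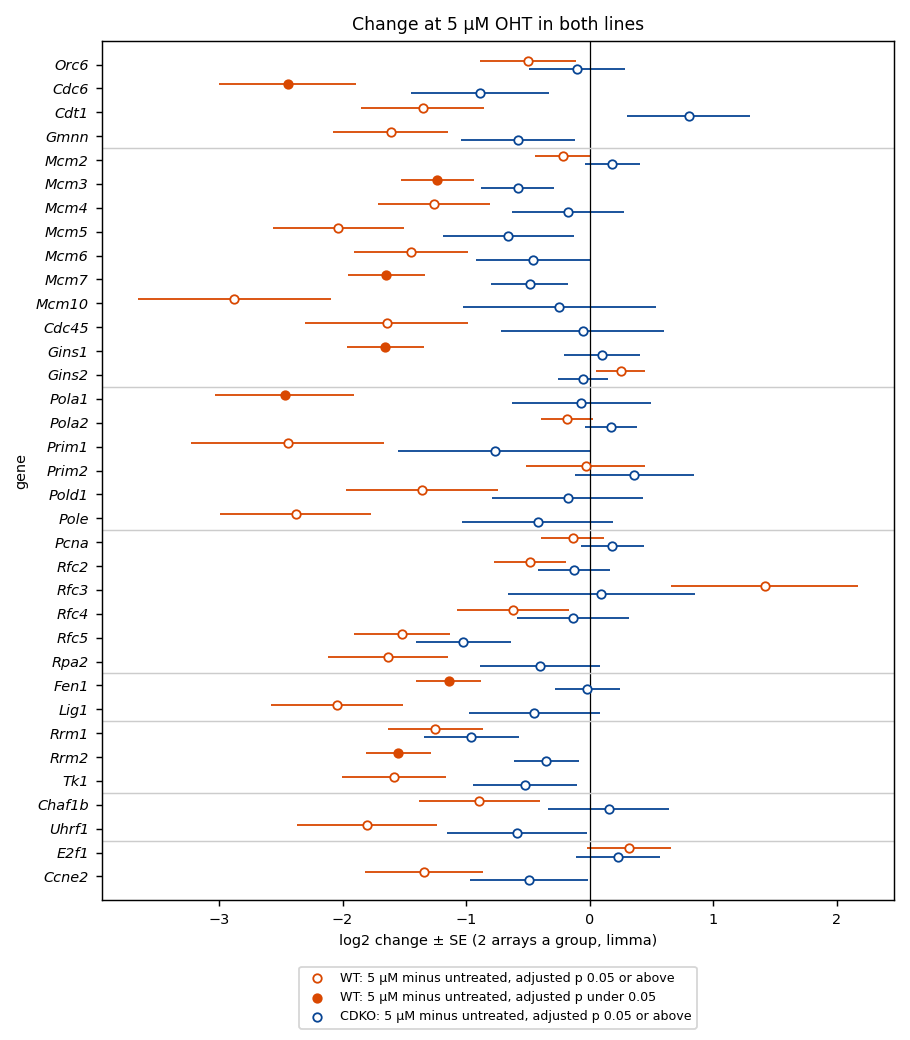
Change of each kept member at 5 µM OHT against untreated cells (log2, limma, bars are SE, 2 arrays a group), in WT cells (orange) and in CDKO cells (blue); filled points have an adjusted p under 0.05. The 7 filled points are all in WT cells, and in CDKO cells every point is open, between -1.02 (Rfc5) and 0.80 (Cdt1).

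The polymerase and primase genes split between large and small differences. Pola1 (1419397_at), the catalytic subunit of the polymerase that extends primers, read 7.41 and 8.06 in untreated WT and 5.16 and 5.37 in treated WT cells. The groups were far apart relative to their spread, and the change was -2.47 ± 0.56 (adjusted p = 0.039), or 5.54-fold lower. In CDKO cells Pola1 read 6.18 and 5.93 untreated, 5.35 and 6.85 at 1 µM and 6.60 and 5.38 at 5 µM, with the untreated pair inside the range of both treated pairs. Prim1, the catalytic primase subunit, read 9.20 and 9.28 against 6.62 and 6.98 in WT cells, a difference of -2.44 ± 0.78 (adjusted p = 0.087). Its CDKO arrays spread from 6.25 to 8.53, both extremes at 1 µM. Pole, the leading-strand polymerase, had a difference of -2.38 ± 0.61 (adjusted p = 0.053) and Pold1, the lagging-strand polymerase, one of -1.36 ± 0.61 (adjusted p = 0.18).

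Both regulatory subunits among the members, Prim2 and Pola2, had small differences on their brightest probe sets. Prim2, the regulatory primase subunit, read 8.01 and 8.19 in untreated WT and 8.06 and 8.08 in treated WT cells, a difference of -0.03 ± 0.48. Its other tested probe set, 1418035_a_at, had a difference of -0.74 ± 0.41 (adjusted p = 0.27). Pola2, the regulatory subunit of the polymerase of Pola1, read 7.48 and 7.39 against 7.27 and 7.23, a difference of -0.18 ± 0.21. On the brightest probe sets the treated arrays of Prim2 lay within the untreated pair, and those of Pola2 lay just below it. Pcna, the sliding clamp and one of the brightest probe sets among the members, read 12.35 and 12.48 in untreated WT, 12.33 and 12.23 in treated WT, 12.36 and 12.18 in untreated CDKO, 12.20 and 11.61 at 1 µM and 12.65 and 12.27 at 5 µM. Its difference in WT cells was -0.14 ± 0.26, and array 2 at 1 µM was the one that lay apart.

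None of the 6 kept clamp, clamp loader and single-strand binding genes passed. The difference was -1.52 ± 0.39 (adjusted p = 0.052) for the loader subunit Rfc5 and -1.63 ± 0.49 (adjusted p = 0.075) for Rpa2, a subunit of the single-strand binding protein. It was -0.62 for Rfc4 and -0.48 for Rfc2, both also loader subunits. On their other tested probe sets it was -1.91 ± 0.89 and -1.22 ± 0.82, and neither passed. Rfc3, a subunit of the same loader, ran the other way, with 6.42 and 6.96 in untreated WT and 7.93 and 8.29 in treated WT cells. The difference of 1.42 ± 0.76 did not pass (adjusted p = 0.25), although the groups did not overlap. In CDKO cells Rfc3 read 7.94 and 8.02 untreated, 7.76 and 5.28 at 1 µM and 8.68 and 7.47 at 5 µM, and its replicate gap of 2.49 at 1 µM was the largest of the members in a CDKO group.

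Of the pair of Okazaki fragment genes, 1 passed the test. Fen1 (1436454_x_at), the flap nuclease, read 10.48 and 10.38 in untreated and 9.30 and 9.28 in treated WT cells, and fell by 1.14 ± 0.26 on the log2 scale (adjusted p = 0.041). Lig1, DNA ligase 1, read 9.38 and 9.26 against 7.20 and 7.35, a difference of -2.05 ± 0.53 that did not pass (adjusted p = 0.054). In CDKO cells Lig1 read 7.38 and 6.72 untreated, 6.91 and 8.66 at 1 µM and 6.37 and 6.84 at 5 µM, below both untreated WT arrays in every case.

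Of the 3 kept genes of nucleotide supply, 1 passed the test. Rrm2 (1434437_x_at), the cell cycle-regulated subunit of ribonucleotide reductase, read 12.90 and 13.00 in untreated WT and 11.39 and 11.41 in treated WT cells, and the change was -1.55 ± 0.26 (adjusted p = 0.018). Its 6 CDKO arrays lay between 11.33 and 12.09, all below untreated WT. Tk1, thymidine kinase, had a difference of -1.58 ± 0.42 (adjusted p = 0.057) and Rrm1, the large reductase subunit, one of -1.25 ± 0.39 (adjusted p = 0.081). In the chromatin group Uhrf1, which keeps DNA methylation through replication, had a difference of -1.80 ± 0.57 (adjusted p = 0.085), and Chaf1b, a histone chaperone subunit, one of -0.89 ± 0.49. Of the S phase entry genes, the cyclin Ccne2 had a difference of -1.34 ± 0.48 (adjusted p = 0.11). E2f1, a transcription factor of this gene set, read 7.54 and 7.37 in untreated and 7.72 and 7.83 in treated WT cells, a difference of 0.32 ± 0.34 (adjusted p = 0.57).

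**Figure D3:**
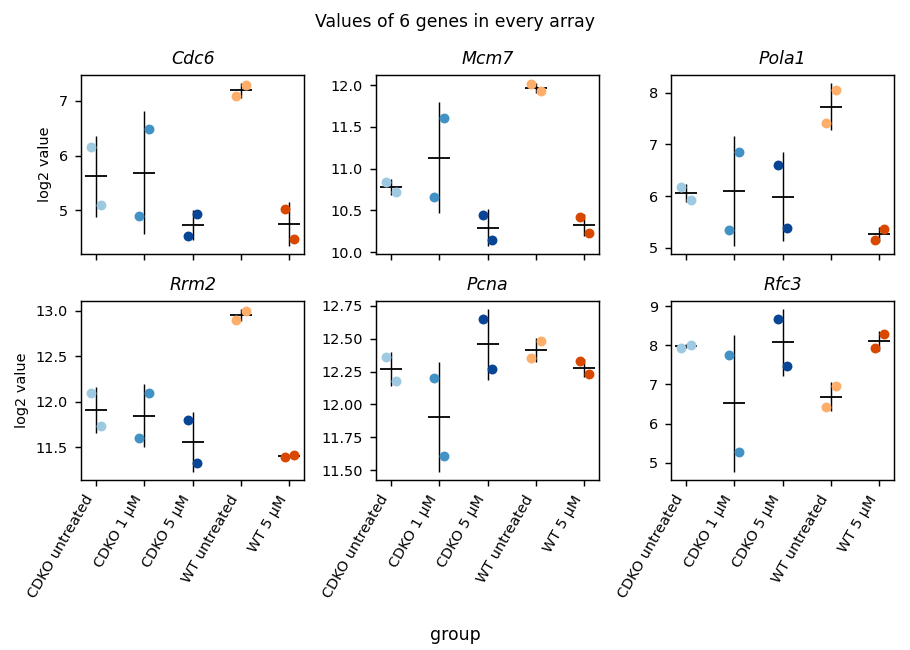
Log2 value of 6 members in every array (points), with the mean of each group (horizontal line) and its SD (vertical line, n = 2 arrays); each panel has its own scale, which does not start at 0. In Cdc6, Mcm7, Pola1 and Rrm2 the untreated WT arrays lie above all others, Pcna stays between 11.61 and 12.65, and Rfc3 is low in untreated WT cells and in 1 of the 1 µM arrays.

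The number of members past the threshold rested on how the spread was pooled. With the spread taken from the 4 WT arrays alone, 27 members fell and 1, Rfc3, rose, while 30.4% of all tested probe sets fell and 24.3% rose. The spread of the CDKO groups, which is larger, enters the test above. Leaving out either 1 µM CDKO array gave 18 lower members (11.9% of all tested probe sets), either untreated CDKO array 9 (6.43%), and either 5 µM CDKO array 5 (5.68%). Leaving out any 1 of the 4 WT arrays gave 0 members, and between 0.237% and 0.880% of all tested probe sets. The median change of the members stayed between -1.40 and -1.33 in these fits.

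A gene can have several probe sets, and these did not always run the same way. Of the 20 members with at least 2 tested probe sets, all were lower in treated WT cells for 14, the signs were mixed for 4 (Gins2, Rpa2, Rrm1 and Rrm2), and none was lower for 2 (E2f1 and Rfc3). Rrm1 read 10.73 and 10.61 in untreated and 9.43 and 9.41 in treated WT cells on its brightest probe set. Its probe set 1448127_at read 8.10 and 8.70 against 9.72 and 9.71, a difference of 1.31 ± 0.79 (adjusted p = 0.31). Rpa2 likewise had 1454011_a_at at 6.46 and 6.38 in untreated and 7.22 and 7.36 in treated WT cells, a difference of 0.87 ± 0.44 (adjusted p = 0.23). Rrm2 fell on 2 probe sets, and on the third, 1416120_at, the difference was 0.26 ± 0.52. Mcm7 passed only on its brightest probe set, with differences of -0.64, -0.89 and -1.86 on the others. Fen1 likewise passed only on its brightest, with -1.02 on the other. Mcm3 also passed on 1426652_at (-1.18), but not on 1449705_x_at (-0.93) or 1426653_at (-0.18). Mcm5 did not pass on its brightest probe set (adjusted p = 0.056) but did on both others, with changes of -1.37 and -1.36. The latter, 1459658_at, read 4.41 and 3.69 in untreated WT and at most 2.75 in any other array. That probe set reached the filter only through untreated WT cells, so its change is no separate evidence. Over all 61 tested probe sets of the members 11 fell, 1459658_at included, and 0 rose. The shares over all tested probe sets were 5.73% and 3.51%. The brightest probe set of 5 members has the suffix _x_at, which marks probes shared with other sequences, and that of 2 has _s_at, which marks probes shared among related transcripts.

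**Figure D4:**
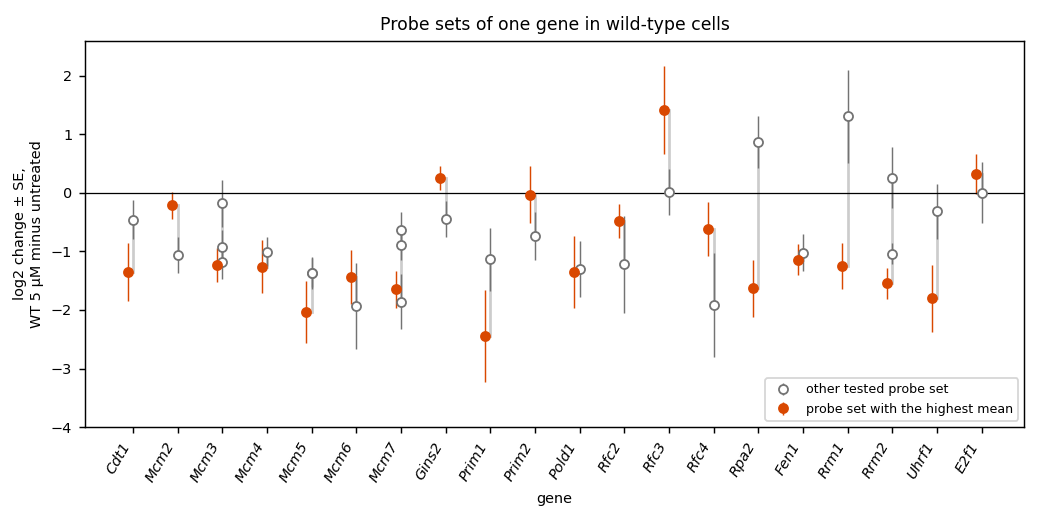
Change in WT cells at 5 µM OHT against untreated (log2, limma, bars are SE) for every tested probe set of the 20 members that have at least 2; the orange point is the probe set with the highest mean, open points are the others. Most pairs lie on the same side of 0, and Gins2, Rpa2, Rrm1 and Rrm2 have points on both sides.

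The same question in CDKO cells gave no call. At 5 µM against untreated, 0 of 35 members passed by limma in either direction, where 0.0290% of all tested probe sets fell and 0.116% rose. At an unadjusted p under 0.05, 2 were lower, Rfc5 at -1.02 ± 0.39 (adjusted p = 0.48) and Rrm1 at -0.96 ± 0.39 (adjusted p = 0.52), and 0 were higher, against 3.94% and 4.96% of all tested probe sets. The median change was -0.18, against -0.00087 over all tested probe sets, with 26 members negative and 9 positive. Of all tested probe sets 50.1% were negative. Both 5 µM arrays lay below both untreated arrays for 7 members and above them for 0, against 14.9% and 15.7% of all tested probe sets. Rrm1 read 10.79 and 9.77 untreated and 9.54 and 9.10 at 5 µM, and Rfc5 read 8.0 and 6.97 against 6.53 and 6.40, so in both genes untreated array 1 was the high one.

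At 1 µM against untreated, 0 members passed, and no tested probe set passed (0%). At an unadjusted p under 0.05, 0 members were lower and 0 higher, against 2.67% and 0.759% of all tested probe sets. The median change was 0.09, with 14 members negative and 21 positive. Of all tested probe sets 55.9% were negative, with a median of -0.042. Both 1 µM arrays lay below both untreated arrays for 1 member and above them for 3, against 13.7% and 9.09% of all tested probe sets. Rfc3 had the most negative value, -1.46 ± 0.76, which came from array 2 alone. Between the doses, 0 members passed, against 0.00967% of probe sets lower and 0.160% higher at 5 µM than at 1 µM. At an unadjusted p under 0.05, 4 were lower and 0 higher, against 4.11% and 8.83% of all tested probe sets. These were Mcm3 (-1.20 ± 0.30, adjusted p = 0.19), Tk1 (-1.19 ± 0.42), Rfc5 (-0.93 ± 0.39) and Mcm7 (-0.84 ± 0.31). Both 5 µM arrays lay below both 1 µM arrays for 7 members and above them for 1, against 15.0% and 20.1% of all tested probe sets. Without array 1 at 1 µM 6 members were lower and 1 higher, where 2.69% of all tested probe sets were lower and 6.50% higher, and with any other array left out 0 passed.

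The 1 µM group was the least uniform for these genes. Array 2 was higher than array 1 in 31 of 35 members, with a median gap of 0.94 between them. Array 1 was higher in 30 of 35 members in both untreated CDKO cells (median gap 0.45) and CDKO cells at 5 µM (0.48). Over all tested probe sets array 1 was higher in 41.6% at 1 µM, 56.6% in untreated CDKO cells and 53.1% at 5 µM. Besides Rfc3, the widest gaps in a CDKO group were those of Mcm10 (4.16 and 6.55) and Prim1 (6.25 and 8.53), both at 1 µM. Without array 2 at 1 µM the median change from untreated was -0.38, and without array 1 it was 0.46. Extremes by array were counted for the members only, with no share over all tested probe sets. In CDKO cells at 5 µM array 2 held the lowest value of the study for 14 members. Array 1 held the highest for 5: Orc6 at 9.74, Cdt1 at 10.31, Prim2 at 8.63, Pcna at 12.65 and Rfc3 at 8.68. In that array the median of the 24 mitosis genes, centred on each gene's mean, was -1.08, and that of the 12 fibroblast markers was also -1.08, the lowest of any array in both lists.

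The interaction term, CDKO response minus WT response at 5 µM, was positive for 32 of 35 members, which is to say that the change was less negative, or more positive, in CDKO than in WT cells. Its median was 1.06 on the log2 scale, against 0.05 over all tested probe sets, of which 46.9% were negative. By limma 0 members passed in either direction, where 0.285% of tested probe sets were higher and 0.0629% lower. By unadjusted p under 0.05, 7 were higher and 0 lower, against 8.34% and 4.17% of all tested probe sets. Gins1 had the smallest p of the members, with a difference of 1.75 ± 0.44 (adjusted p = 0.20). The others were Rrm2 at 1.20 ± 0.37, Cdt1 at 2.15 ± 0.71, Pola1 at 2.40 ± 0.80, Fen1 at 1.12 ± 0.37, Mcm7 at 1.16 ± 0.44 and Mcm10 at 2.63 ± 1.11, with adjusted p between 0.27 and 0.40. The response of the members was therefore not shown to differ between the lines, and the comparison contains the untreated WT and untreated CDKO groups, which already differed.

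Untreated CDKO cells had lower values than untreated WT cells for 32 members, with a median of -0.92. Of all tested probe sets 50.2% were lower, with a median of -0.0035. By limma 3 were lower and 0 higher, where 4.28% of all tested probe sets were lower and 2.30% higher. The 3 were Lig1 (-2.28 ± 0.53, adjusted p = 0.049), Gins1 (-1.50 ± 0.31, adjusted p = 0.035) and Mcm3 (-1.27 ± 0.30, adjusted p = 0.048). Gins1 read 4.84 and 4.40 in untreated CDKO cells and Mcm3 read 8.39 and 8.40, close to their values in treated WT cells and well below untreated WT. At an unadjusted p under 0.05, 16 were lower and 0 higher, against 12.6% and 12.4% of all tested probe sets. Among those that did not pass, Mcm10 differed by -2.68 ± 0.78 (adjusted p = 0.091), Uhrf1 by -2.05 ± 0.57 (adjusted p = 0.080) and Mcm6 by -1.79 ± 0.46 (adjusted p = 0.066). Both untreated CDKO arrays lay below both untreated WT arrays for 26 members and above them for 1, against 30.4% and 30.9% of all tested probe sets. The 3 calls moved with single arrays: the count was 0 without any 1 of the untreated CDKO or the 4 WT arrays, 1 without either 5 µM CDKO array and 13 without either 1 µM CDKO array. The lower share of all tested probe sets was 0.880% to 3.84%, 3.82% and 7.99% in those fits.

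At 5 µM the lines stood close together for these genes. By limma 0 members passed, where 0.856% of tested probe sets were lower and 0.943% higher in CDKO cells, and the median difference was -0.02. By unadjusted p under 0.05, 1 member was higher and 0 lower, against 9.33% and 6.26% of all tested probe sets. This was Cdt1, named here after its values were seen, with 10.31 and 8.83 in CDKO and 8.30 and 8.39 in WT cells at 5 µM, a difference of 1.23 ± 0.50 (adjusted p = 0.29). Its CDKO arrays lay above both WT arrays, but array 1 was 1.48 above array 2. Both CDKO arrays lay below both WT arrays for 8 members and above them for 5, against 26.2% and 30.6% of all tested probe sets.

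As planned by the submitters, the 4 treated CDKO arrays were also set against the other 6. In that contrast 29 members were negative and the median was -0.38, against 48.3% and 0.015 for all tested probe sets. By limma 0 members passed, where 2.88% of tested probe sets were lower and 1.19% higher. By unadjusted p under 0.05, 4 were lower and 0 higher, against 10.6% and 8.44% of all tested probe sets. They were Uhrf1 (-0.90 ± 0.37), Mcm6 (-0.81 ± 0.30), Ccne2 (-0.74 ± 0.31) and Rfc5 (-0.61 ± 0.25), with adjusted p between 0.19 and 0.25. Without array 2 at 1 µM 5 members were lower in this contrast, where 3.47% of all tested probe sets were, and with any other array left out 0 were (0.498% to 4.64%). The contrast pools untreated WT, where most members were highest, with groups in which they were not, and it shares arrays with each comparison above.

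**Figure D5:**
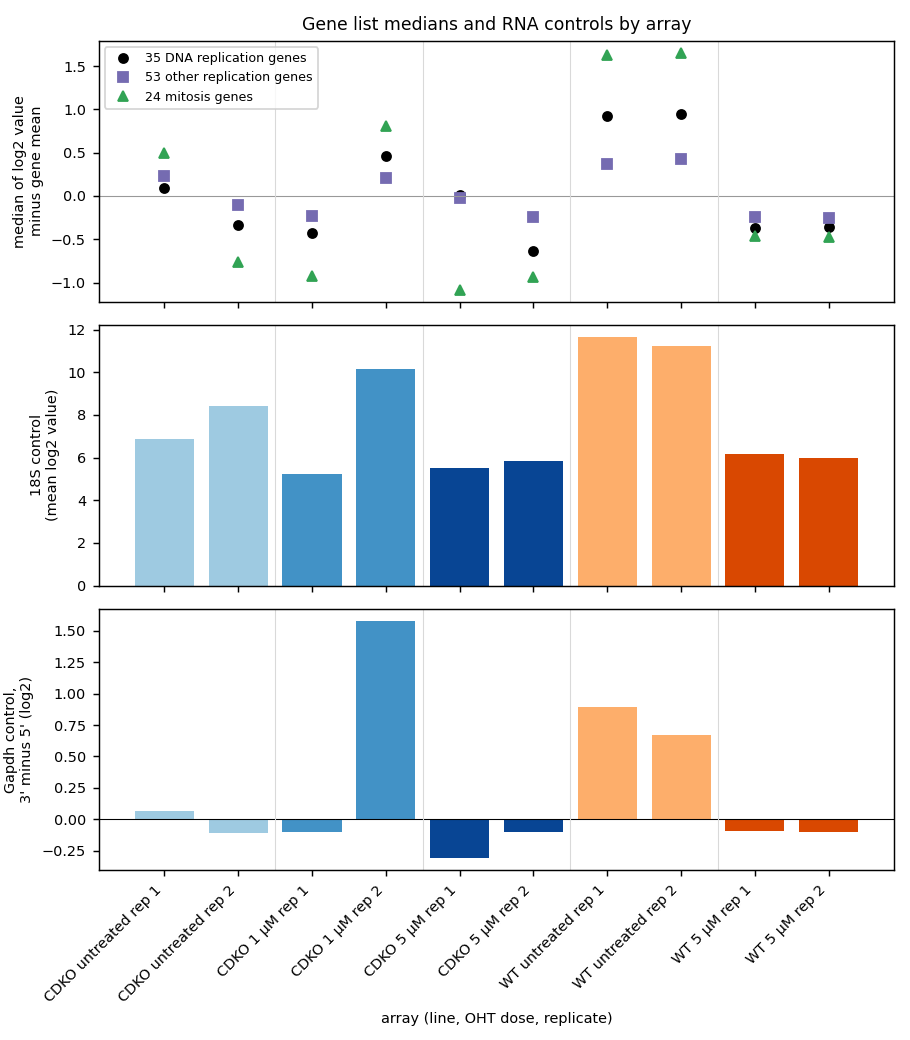
Top, median over the genes of each list of the log2 value minus the gene's mean over the 10 arrays, for the 35 members (black), 53 other replication genes (squares) and 24 mitosis genes (triangles); middle, mean log2 value of the 18S ribosomal RNA control probe sets; bottom, log2 value of the 3' minus the 5' Gapdh control. The arrays with the highest 18S values, 11.6, 11.2 and 10.2, are also those with the highest medians of the members.

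Controls on the array moved with the members, as the plot of list medians and RNA controls shows. The 18S control read 11.6 and 11.2 in untreated WT, 10.2 in CDKO 1 µM array 2, and from 5.21 to 8.44 in the other arrays. The 3' minus 5' difference of Gapdh was 0.89 and 0.67 in untreated WT, 1.58 in CDKO 1 µM array 2, and between -0.31 and 0.07 elsewhere. These 3 arrays were the 3 highest of the 10 for 18 of the 35 members (51.4%) and for 10.8% of all tested probe sets, and for 15 of the 24 mitosis genes (62.5%). They were the 3 lowest for Rfc3 (2.86% of the members), and for the probe sets of Rrm1, Rrm2 and Rpa2 that ran against the brightest one. The latter are 3 of the 26 other tested probe sets of members (11.5%), near the 12.3% of all tested probe sets with this order. The part of RNA quality or labelling in the lower values of the members was not tested, since no comparison between WT groups is possible without the untreated arrays.

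Untreated WT cells also differed in markers of other cell types. All 12 fibroblast markers were matched, and 11 or 12 had a group mean of at least 4 in every group, with the summed log2 value of an array between 125.1 and 144.7. Of the 5 epithelial markers 4 reached 4 in untreated WT and 2 in each of the other groups. Krt8, a keratin, read 8.59 and 9.04 in untreated WT and at most 3.15 elsewhere, and Cdh1, E-cadherin, read 6.78 and 6.34 against at most 3.24. The summed epithelial value was 35.8 and 35.9 in untreated WT and between 21.3 and 25.7 in the other arrays. Of 10 skeletal muscle markers 7 reached 4 in untreated WT, among them Actc1, Myl1 and Myh3, and 3 in each other group. The muscle markers summed to 61.9 and 62.3 against 43.6 to 46.3, while the regulators Myog and Myod1 were under 4 in every group. Of the 7 kept muscle markers 5 fell in treated WT cells and 1 rose, by 1.93. Over all tested probe sets 5.73% fell and 3.51% rose. Actc1, Myl1, Myh3 and Tnni1 reached the filter only through untreated WT cells, so the count of muscle markers that fell is no separate evidence. Macrophage and leukocyte markers summed to 121.4 in both untreated and 123.5 and 124.0 in treated WT arrays, against 85.7 to 119.4 in CDKO arrays, with Itgam and Aif1 under 4 throughout. Of 5 endothelial markers 1 reached 4 in any group, and adipocyte markers summed to 32.5 and 32.6 in untreated WT against 21.2 to 29.0 elsewhere. The part of these cells in the values of the members was not tested.

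Other genes of replication, on a separate list of 58 of which 53 were kept, were read in the same comparison. In treated WT cells 11 fell and 1 rose, where 5.73% of all tested probe sets fell and 3.51% rose, and the median was -0.62. The most negative were E2f7, a repressor of E2F targets (-3.37 ± 0.49, adjusted p = 0.012), Clspn, which carries the checkpoint signal at stalled forks (-3.27 ± 0.78, adjusted p = 0.044), and Atad5, which unloads PCNA (-2.76 ± 0.40, adjusted p = 0.011). Pold4, the smallest subunit of the lagging-strand polymerase, rose from 7.85 and 7.87 to 9.61 and 9.66, a change of 1.78 ± 0.35 (adjusted p = 0.027), and its level in 5 of the 6 CDKO arrays was between 9.48 and 9.80. The remaining CDKO array, array 2 at 1 µM, read 8.38. Pold4 was thus lowest in the 3 arrays with the highest 18S values. Ticrr, which helps CDC45 to join the helicase, read 5.04 and 5.09 in untreated WT and at most 3.45 in any other array. It is among the 11 that fell and reached the filter only through untreated WT cells, so its fall is no separate evidence.

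Mitosis genes were read in the same comparisons. Of 24 kept, 12 fell and 0 rose in treated WT cells, where 5.73% of all tested probe sets fell and 3.51% rose. All 24 changes were negative, and the median was -2.14, against -1.36 for the members. In untreated CDKO against untreated WT the medians were -1.78 and -0.92, and at 5 µM against untreated in CDKO cells they were -0.90 and -0.18. The difference between the lists was not tested. Centred on each gene's mean, the mitosis median in CDKO cells at 5 µM stood at -1.08 in array 1, where that of the members was 0.01, and at -0.94 in array 2, where that of the members was -0.64.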

How the data were processed

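Expression was measured in 10 mouse embryonic fibroblast samples, 2 for each of 5 groups of line and OHT dose. The log2 values, 1 per probe set and array, are as the authors deposited them, and came from GCRMA, per the submitters' processing notes. The version and chip definition of that step were not given in the sources used here. Groups follow the titles, although the description field calls every sample a conditional knockout. Symbols came from the platform annotation: of 45101 probe sets 34945 had 1 symbol, 932 several and 9160 none, and 64 controls were left out.

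All arrays entered 1 limma 3.58.1 model of 5 group means (R 4.3.3, lmFit, eBayes, 5 residual degrees of freedom). Tests covered the 20681 probe sets whose highest group mean reached 4, with Benjamini-Hochberg adjustment over all of them and a threshold of 0.05. "Fell", "rose" and "passed" refer to that threshold. The spread was pooled over groups of unequal scatter. The fit was tested on simulated data in which a probe set had the same spread in every group. That test therefore cannot check the calls under unequal scatter.

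The members and lists were chosen with earlier results of these data known. By rule, every array is given for members past the threshold (up to 3 in a role), the 3 largest and 3 smallest changes in WT cells, the 3 widest replicate gaps in CDKO cells and members of opposite sign. Alternatives covered the filter, prior, scaling, probe set, array weights, blocks, groups fitted and each array left out. The spike-in class divided the arrays at the widest gap in the median level of the spike-in control probe sets. All WT arrays and array 1 of untreated and 5 µM CDKO cells were in the higher class. The other CDKO arrays were in the lower class, so the class overlapped with line and dose. Alternatives chosen after seeing the data were a second probe set and leaving out the 3 arrays of highest 18S. Arrays of equal number were not paired, since their differences correlated between -0.45 and 0.43 across groups. Promoter words were counted in RefSeq windows (GRCm38.p6), which were not found for 8 kept members.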

Additional observations from a re-analysis of the deposited data

Results flagged for a closer look

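Ticrr, of the other replication genes, differed between the lines in its response to 5 µM OHT by the interaction term of limma, with a difference of 2.11 ± 0.27 (log2, SE, adjusted p = 0.030). The untreated WT arrays read 5.04 and 5.09 and every other array lay between 2.76 and 3.45, under the value of 4 used as a filter, so the difference rests on the untreated WT group. With arrays left out in turn the adjusted p ran from 0.029 to 0.25, and under the other alternatives from 0.0068 to 0.085.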

How the results depend on the processing

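In WT cells 7 members were lower at 5 µM. The count was 1 with no filter, 3 with the replicate number as a block (replicate block), 11 with quantile normalization, 12 with a block for the spike-in class, 27 with only the groups compared and 28 with array weights, where the lower share of all tested probe sets was 1.79%, 3.72%, 5.79%, 8.69%, 30.4% and 33.2%. It ran from 0 to 18 with 1 array left out. With array weights 2 members were higher, and with only the groups compared 1 was. Of the 7, none stayed past the threshold with every array left out or under every other alternative run. Between untreated lines 3 members were lower. The count was 0 with no filter, with the replicate block and with only the groups compared (lower share of all tested probe sets 1.51%, 3.15% and 1.31%). It was 1 with a filter at 6, with centred arrays, with 1 probe set per gene and with the spike-in class (3.08%, 4.29%, 2.36% and 6.59%), 5 with the mean over probe sets (4.29%) or with the second probe set (4.28%), and 10 with array weights (4.90%). It ran from 0 to 13 with 1 array left out. For treated CDKO against the control groups 1 was lower with the mean over probe sets (2.89%) and 0 to 5 with 1 array left out, and between doses 0 to 6 were lower and 0 to 1 higher. The replicate block changed no other count of calls.

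The median of the members moved at 1 µM against untreated from 0.09 to -0.38 without the 3 arrays of highest 18S. Between doses it moved from -0.29 to 0.090 without them and to -0.71 with the spike-in class. For treated CDKO against the control groups it moved from -0.38 to 0.016 with the spike-in class. With 1 array left out it ran from -1.40 to -1.33 in WT cells, -0.62 to 0.042 at 5 µM and -0.38 to 0.46 at 1 µM in CDKO cells, -0.77 to 0.090 between doses, 0.68 to 1.32 for the difference between lines, -1.25 to -0.75 and -0.26 to 0.39 between lines untreated and at 5 µM, and -0.57 to -0.08 for treated CDKO. Within arrays of 1 spike-in class, the median at 5 µM against untreated CDKO was -0.28 in the higher and -0.29 in the lower class. Each value is 1 array minus 1 array. In the higher class 20 members were negative, against 53.6% of all tested probe sets, and in the lower 27, against 46.7%. Other pairs in the lower class ran from -1.35 (5 µM minus 1 µM, array 2 of each) to 0.77 (1 µM minus untreated, array 2 of each).

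In WT cells signs turned for Gins2 (-0.10 with the mean over probe sets, -0.45 with the second), Prim2 (0.073 with quantile normalization, -0.12 to 0.063 with 1 array left out), Rpa2 (0.87 with the second) and Rrm1 (0.033 with the mean, 1.31 with the second). For Rfc3 the difference between lines was 0.064 with the second probe set. The cause of these changes was not tested. Signal over background limits the values of genes near 4.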
